A study of Homo sapiens with 28 samples.

Results

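Open chromatin regions that carried a peak in both Empty.Vector Rep1 and Empty.Vector Rep2 and in neither library of cells expressing wild-type ARID1A are described here. They are called WT-absent sites. Overlapping peaks of Empty.Vector Rep1-2 and ARID1A.WT Rep1-2, on chromosomes 1 to 22 and X, were merged into 91081 regions, and 4831 of these (5.3%) met that rule. They were 11.6% of the 41688 regions called in both empty vector libraries. The merged lists of all 28 libraries held 117446 regions. The sites were chosen by the peak calls of these 4 libraries, so their absence from ARID1A.WT is the rule itself and was not tested. Below its threshold a peak list is silent, so a WT-absent site is a site under the caller's threshold in both ARID1A.WT libraries, and whether it was closed in full was not measured.

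ARID1A and ARID1B are alternative large subunits of the canonical BAF (cBAF) complex, an ATP-driven remodeler that moves or evicts nucleosomes, mostly at enhancers. ARID1A is often inactivated in endometrial carcinoma. Both proteins hold an ARID domain, which binds DNA, long intrinsically disordered regions (IDRs) in the N-terminal part, and a C-terminal core-binding region (CBR) that joins them to the other subunits. In ATAC-seq a transposase inserts adapters into accessible DNA, and stretches with many insertions are called as peaks.

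The libraries were made from AN3CA cells, a long-established line from a human endometrial carcinoma, grown in EMEM with serum. The series title concerns local condensation of cBAF governed by ARID1A and ARID1B. Its design text names CUT&Tag, while the titles of the series and the samples name ATAC-seq, which was followed. The labels do not say which vector or promoter drove the constructs, what endogenous ARID1A or ARID1B the line holds, or whether replicates came from separate cultures, so the spread between replicates may be technical.

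Each group is AN3CA cells with 1 construct. ARID1A.WT and ARID1B.WT are the wild-type proteins. Per the labels, ARID1A.CBR and ARID1A.delIDR1 are truncations, ARID1A.DBDmut has a mutated ARID domain, ARID1A.DDX4 is a hybrid with the IDR of DDX4, and ARID1B.S320_G327del is a deletion also called M2. ARID1A_Y42S, ARID1A_AQGscramC1C2, ARID1B_A457_G461del, ARID1B_Block13del and ARID1B_Block9del were named by their titles, since the genotype label of these 10 libraries names the empty vector. Their peak names carry the construct of the title. The other group is Empty.Vector, the control, with 4 libraries, against 2 in each of the other 12 groups.

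The peak names carry 6 date codes, numbered here in order of date. Rep1 of ARID1A.WT, DBDmut, delIDR1, CBR and Empty.Vector has code 1, and Rep2 of the same constructs has code 2. Code 3 holds ARID1B.WT, ARID1B.S320_G327del and Empty.Vector Rep3-4, and code 4 holds ARID1A.DDX4 alone. Code 5 holds ARID1A_Y42S and the remaining ARID1B deletions, and code 6 holds ARID1A_AQGscramC1C2 alone. No empty vector library has codes 4 to 6, so for those constructs the effect of the construct and that of the date code on any difference to Empty.Vector cannot be told apart.

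The lists held between 19433 peaks (ARID1A_Y42S Rep2) and 76530 peaks (ARID1A.WT Rep1) on the chromosomes used. The ARID1A.WT lists, with 76530 and 62031 peaks, were longer than those of Empty.Vector Rep1 and Rep2, with 45227 and 49468. The shorter lists were thus the ones that held the WT-absent sites. Empty.Vector Rep3 and Rep4 had 24527 and 28314 peaks. Read depth is not part of these lists, and within a construct the longer list mostly called more of the sites. Each share is therefore also given with every list trimmed to its most significant peaks, at the length of the shortest list with its date code, codes 1 and 2 being pooled. That length was 43130 peaks for codes 1 and 2 and 24527 for code 3. Trimming has a cost of its own: it removes weak peaks, and a list with many new strong peaks keeps fewer of the old ones.

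The WT-absent sites were narrow and weak among empty vector peaks. Their median width was 432 bp (interquartile range 325 to 579 bp), against 1038 bp for the 32207 regions called in all 4 libraries and 592 bp for all merged regions. Their median fold enrichment over the caller's background, a value of the authors, was 4.39 in Empty.Vector Rep1 and 3.97 in Rep2, against 5.56 and 5.22 in regions called in all 4 libraries. Their median −log10 p-value was 10.5 and 10.8 in the same libraries, against 29.5 and 32.7. Regions called in all 4 libraries were thus wider and had more significant peaks. Width is that of the merged region, which for regions called in all 4 libraries also takes in the ARID1A.WT peaks, so the widths are not alike in make-up. For comparison at like fold enrichment, 18169 regions called in all 4 libraries were taken, whose mean fold enrichment in Empty.Vector Rep1-2 lay between 2.77 and 5.91, the 10th and 90th percentile of the WT-absent sites. These comparison regions were still wider, with a median of 1181 bp.

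**Figure D1:**
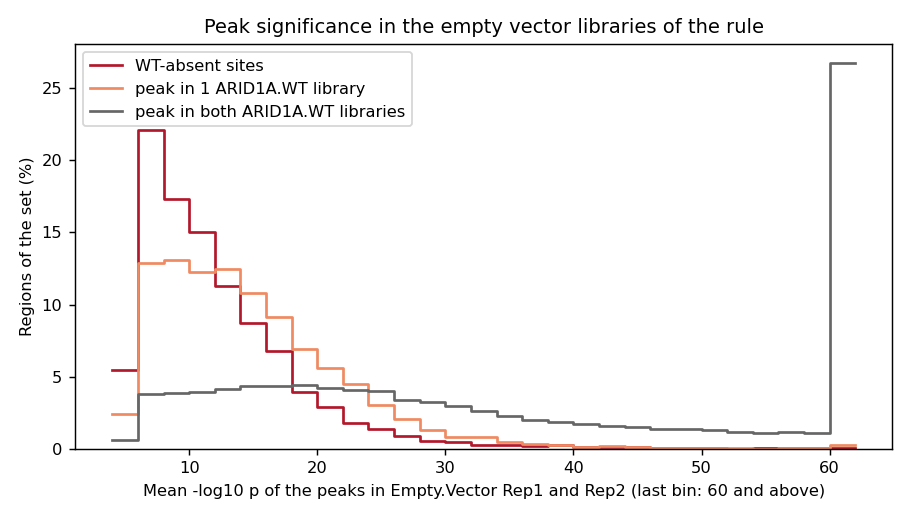
Distribution of the mean −log10 p-value of the peaks in Empty.Vector Rep1 and Rep2 (x axis) as a percent of each set (y axis), for WT-absent sites, regions with a peak in 1 ARID1A.WT library and regions with a peak in both. WT-absent sites gather at low significance, with 22.1% between 6 and 8, and 1 site (0.0207%) lies at 60 or above, against 26.7% of the regions called in both ARID1A.WT libraries.

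Another 4650 regions called in both empty vector libraries had a peak in 1 ARID1A.WT library, 4004 of them in Rep1 only and 646 in Rep2 only. The weakest WT-absent sites lay at chr20:48653659-48654153, chr12:117536302-117537009 and chr19:34304409-34305023 (hg19, as all positions here), where the lower −log10 q-value of the 2 empty vector peaks was 3.02, 3.03 and 3.07. All 28 lists end at a −log10 q-value between 3.001 and 3.03. Just outside the rule were chr3:110803808-110804310, chr10:88580503-88581135 and chr5:58592680-58593050, each kept out by 1 ARID1A.WT peak with a −log10 q-value of 3.03, 3.05 and 3.08. These examples were picked as the regions nearest the threshold and do not stand for the rest. The median −log10 q-value of the WT-absent sites was 8.38 in Empty.Vector Rep1 and 8.72 in Rep2. In the 4650 regions the median −log10 q-value of the ARID1A.WT peak was 7.48. Leaving out ARID1A.WT Rep1 raised the number of sites to 8887, and leaving out Empty.Vector Rep1 raised it to 9709.

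The nearest ARID1A.WT peak lay a median of 6473 bp from a WT-absent site (interquartile range 2602 to 18925 bp). Within 500 bp of such a peak were 41 sites, within 5000 bp were 2011, and 540 were more than 50000 bp away. The nearest other region called in all 4 libraries was a median of 18474 bp away, against 11733 bp for the comparison regions and 18902 bp for all merged regions. Hence 2820 sites had no ARID1A.WT peak within 5000 bp.

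The first question was whether the sites carried peaks in the empty vector libraries that the rule did not use. Few did. Empty.Vector Rep3 called 218 of the 4831 sites (4.51%, 95% Wilson interval 3.96 to 5.13%) and Rep4 called 432 (8.94%, 8.17 to 9.78%). The same libraries called 63.9% and 74.7% of the comparison regions and 26.02% and 30.5% of all merged regions. In Rep3-4 the sites that were called had a median fold enrichment of 4.24 and 4.42, under the medians of those lists, 5.66 and 5.75. Matched on −log10 p-value in place of fold enrichment, 8831 comparison regions were called at 28.2% and 48.1%. The match was not complete. In Empty.Vector Rep1 and Rep2 their median −log10 p-value was 12.6 and 13.7, against 10.5 and 10.8 for the WT-absent sites. Their median width was 776 bp, against 432 bp. The Empty.Vector lists of code 3 are short. With every list trimmed to 19433 peaks, Empty.Vector Rep1 and Rep2, which chose the sites, kept only 4.26% and 3.37% of them. Empty.Vector Rep3 and Rep4 then called 1.30% and 0.952%. How much of the low share on the whole lists comes from list length, date code or depth was not tested. The sites are therefore peaks of Empty.Vector Rep1-2 and are not shown to be open in every empty vector library.

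The wild-type paralogue was compared with the empty vector libraries of its own date code. On the whole lists the call shares did not part them. ARID1B.WT Rep1 and Rep2 called 288 and 195 of the WT-absent sites (5.96% and 4.04%), against 218 and 432 (4.51% and 8.94%) in Empty.Vector Rep3 and Rep4. The means were 5.00% ± 1.36 and 6.73% ± 3.13 (SD, n = 2 each), the libraries overlapped, and the difference of −1.73 percentage points was within the spread between replicates. The ARID1B.WT lists were longer, however, with 63482 and 59776 peaks, and called 84.9% ± 2.72 of the comparison regions, against 69.3% ± 7.60 in Empty.Vector Rep3-4 (SD, n = 2 each).

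At equal list length the libraries no longer overlapped. ARID1B.WT Rep1 and Rep2 then called 8 and 4 of the WT-absent sites (0.166% and 0.0828%), and Empty.Vector Rep3 and Rep4 called 218 and 190 (4.51% and 3.93%). The means were 0.124% ± 0.0585 and 4.22% ± 0.410 (SD, n = 2 each). Over the comparison regions the same trimmed lists gave 47.6% and 46.7% in ARID1B.WT, and 63.9% and 64.6% in Empty.Vector Rep3-4. Over the comparison regions matched on −log10 p-value they gave 12.003% and 12.3% in ARID1B.WT, and 28.2% and 25.9% in Empty.Vector Rep3-4. The trimmed ARID1B.WT lists were thus lower in the WT-absent sites and in both sets of comparison regions. Trimming left Empty.Vector Rep3 whole and cut ARID1B.WT from 63482 and 59776 peaks to 24527. In the whole ARID1B.WT lists the median −log10 p-value of the called sites stood at percentiles 13.8 and 14.5, in the part trimmed off. The gap at equal length therefore cannot be told apart from the trimming. ARID1B.S320_G327del stood with ARID1B.WT, at 5 and 4 sites (0.103% and 0.0828%). With 2 libraries against 2 no two-sided permutation p can go below 0.333, and no p is given for a score over chosen sites.

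Site by site, 81 WT-absent sites were called by both Empty.Vector Rep3-4 and by neither ARID1B.WT library (1.68%), the pattern of the rule in libraries it did not use. Of all merged regions 0.553% had it, and of the comparison regions 0.815% (1.05% if matched on −log10 p-value). These shares are of whole sets, of which Empty.Vector Rep3-4 called unlike parts. Both Empty.Vector Rep3-4 libraries called 109 WT-absent sites, and 81 of these had no ARID1B.WT peak. Over all merged regions they called 22418, and 504 of these had no ARID1B.WT peak. Of the comparison regions they called 61.6%. Why these parts differ was not tested. The opposite pattern, both ARID1B.WT and neither Empty.Vector Rep3-4, was found at 40 sites (0.828%), against 27.8% of all merged regions. It was found at 11.6% of the comparison regions (23.2% if matched on −log10 p-value). In lists of equal length the counts were 70 sites (1.45%, against 4.75% of all merged regions) and 1 site (0.0207%, against 6.66%). Comparison regions had the 2 patterns at 13.1% and 2.98% in those lists, and at 11.8% and 5.48% if matched on −log10 p-value. Most sites, 3975 (82.3%), had no peak in any of these 4 libraries, against 30.5% of all merged regions. For the comparison regions this share was 6.25% (13.1% if matched on −log10 p-value). Both readings rest on few sites, and the number of sites with the first pattern was 20 when every list was trimmed to 19433 peaks.

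**Figure D2:**
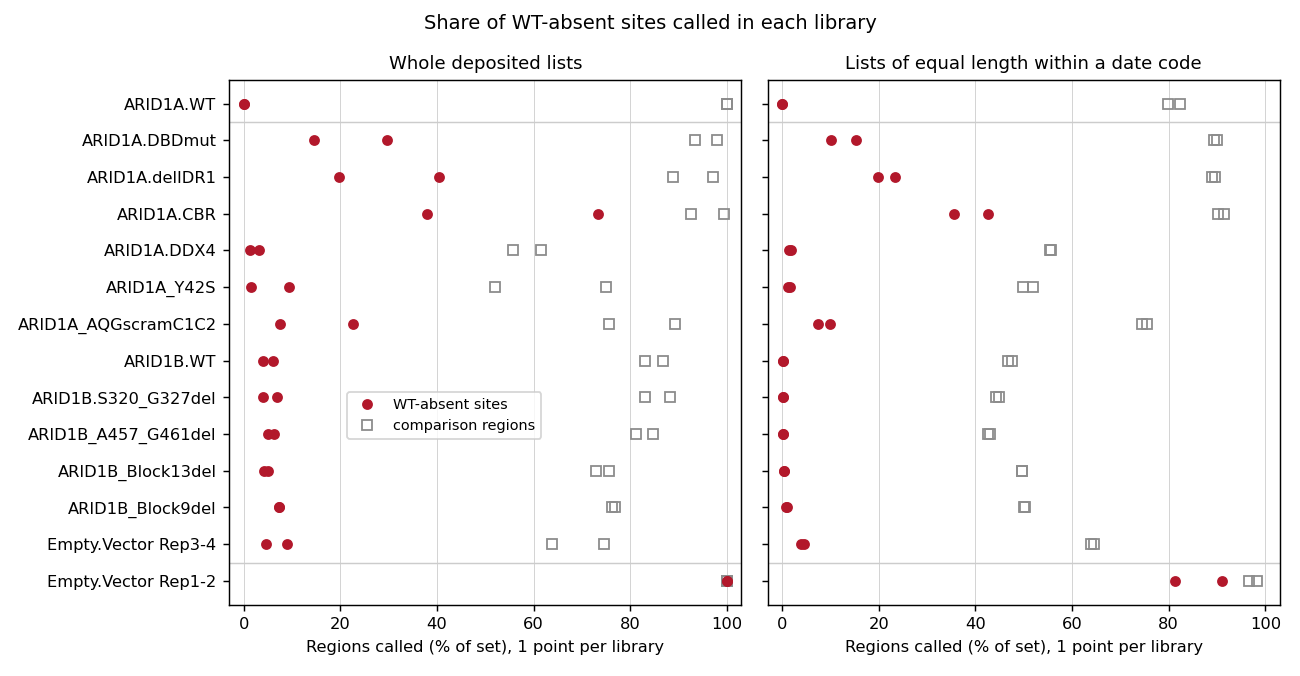
Percent of WT-absent sites (filled circles) and of comparison regions (open squares) called in each library, 1 point per library, on the whole lists (left) and on lists of equal length within a date code (right). The WT-absent sites lie left of the comparison regions in every library outside the rule, with ARID1A.CBR Rep2 the highest of them at 73.4% on the whole lists, and all ARID1B constructs are under 1% at equal length.

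The constructs with date codes 1 and 2 are the ones with empty vector libraries from the rule. ARID1A.CBR, the truncation named for the core-binding region, had most peaks at WT-absent sites. Its libraries called 37.9% and 73.4% of them, a mean of 55.6% ± 25.1 (SD, n = 2), against 46.8% and 62.4% of all merged regions, a mean of 54.6% ± 11.0. The mean of CBR was thus close to that over all merged regions, with Rep1 below it and Rep2 above it. ARID1A.delIDR1 called 19.7% and 40.4% of the sites, a mean of 30.1% ± 14.6 (SD, n = 2), against 52.1% of all merged regions. ARID1A.DBDmut called 29.7% and 14.6%, a mean of 22.1% ± 10.7 (SD, n = 2), against 56.9%. The 3 constructs were not parted from each other by libraries alone: the higher delIDR1 library lay above the lower CBR library, and the higher DBDmut library above the lower delIDR1 library. Within a construct the longer list had the higher share each time, for example 65949 against 45089 peaks in CBR.

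In lists of 43130 peaks the spread shrank and the 3 constructs separated. CBR called 35.5% and 42.7% of the WT-absent sites, delIDR1 19.7% and 23.4%, and DBDmut 15.3% and 10.1%. Their means were 39.1% ± 5.06, 21.6% ± 2.56 and 12.7% ± 3.66 (SD, n = 2 each). The same lists called 45.3%, 46.3% and 46.9% of all merged regions. No library of a construct lay within the range of another, and the order was the same within date code 1 and within date code 2. The comparison regions did not follow that order as closely, with means of 90.8% ± 0.767 in CBR, 89.2% ± 0.475 in delIDR1 and 89.7% ± 0.471 in DBDmut (SD, n = 2 each). Matched on −log10 p-value they gave 79.4% ± 3.07, 75.2% ± 0.480 and 76.6% ± 1.66 in CBR, delIDR1 and DBDmut (SD, n = 2 each). Empty.Vector Rep1 and Rep2, which chose the sites, kept 91.1% and 81.3% of them at this length, and ARID1A.WT, at 0% by the rule, kept 79.8% and 82.3% of the comparison regions.

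Both CBR libraries called 1764 WT-absent sites (36.5%), against 46.1% of all merged regions. Both delIDR1 libraries called 704 (14.6%, against 44.1%), and both DBDmut libraries called 410 (8.49%, against 49.4%). These shares of sites called by both libraries were under the background, most so for DBDmut. At 905 sites (18.7%) both CBR libraries and neither DBDmut library had a peak, against 3.2% of all merged regions. The reverse held at 24 sites (0.497%), against 5.62%. At equal list length these counts were 766 (15.9%, against 3.15% of all merged regions) and 23 (0.476%, against 5.05%). Both CBR and neither delIDR1 library called 558 sites (11.6%, against 2.32% of all merged regions), and the reverse held at 24 (against 2.01%).

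The sites called by the 3 constructs overlapped in part. Of the 704 sites called by both delIDR1 libraries, 517 (73.4%) were also called by both CBR libraries, and they were 29.3% of the 1764 CBR sites. Over all merged regions these shares were 86.7% and 82.9%. Of the 410 DBDmut sites, 252 (61.5%) were among the CBR sites, which is 14.3% of the CBR sites. Over all merged regions these shares were 77.7% and 83.3%. All 6 libraries called 118 sites (2.44%, against 35.4% of all merged regions), and 878 (18.2%) had a peak in none of the 6, against 22.8% of all merged regions and 0.066% of the comparison regions. These shares over comparison regions show how often regions of like fold enrichment, which ARID1A.WT kept, were called. Matched on −log10 p-value, 0.136% of the comparison regions had a peak in none of the 6.

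The other constructs called few of the sites on the whole lists. ARID1A_AQGscramC1C2, alone in date code 6, called 7.49% and 22.5%, and both its libraries called 229 sites (4.74%, against 30.2% of all merged regions). ARID1A_Y42S called 9.42% and 1.55%, and ARID1A.DDX4, alone in date code 4, called 1.32% and 3.19%. Both libraries called 47 sites in ARID1A_Y42S (against 20.1% of all merged regions) and 30 in ARID1A.DDX4 (against 20.6%). In each of these constructs the library with the longer list had the higher share. Trimmed to equal length, the shares were 7.49% and 9.89% in ARID1A_AQGscramC1C2, 1.14% and 1.55% in ARID1A_Y42S and 1.32% and 1.80% in ARID1A.DDX4.

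The ARID1B deletions called between 4.06% and 7.37% of the sites on the whole lists. ARID1B_Block9del called 7.29% and 7.37% of the sites, ARID1B_A457_G461del 6.27% and 5.03%, ARID1B_Block13del 4.95% and 4.18%, and ARID1B.S320_G327del 4.06% and 6.87%. Their means ranged from 4.56% ± 0.542 in Block13del to 7.33% ± 0.0585 in Block9del (SD, n = 2 each). Both libraries called 126 sites (2.61%) in Block9del, 81 in A457_G461del, 66 in Block13del and 72 in S320_G327del. The matching shares of all merged regions were 28.5%, 46.7%, 29.7% and 58.1%. ARID1B.WT had 66 such sites (1.37%, against 54.3%) and Empty.Vector Rep3-4 had 109 (2.26%, against 24.6%).

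Within date code 5, at 19433 peaks a list, Block9del called 0.931% and 0.787% of the sites and Block13del 0.310% and 0.393%. A457_G461del called 4 sites in each library (0.0828%), and ARID1A_Y42S had 1.14% and 1.55%. At this length the libraries of these 4 constructs did not overlap. Over the comparison regions Block9del (50.01% and 50.3%), Block13del (49.6% and 49.6%) and ARID1A_Y42S (49.9% and 51.9%) lay close together, and A457_G461del was lower (43.1% and 42.6%). Matched on −log10 p-value the comparison regions gave 7.59% and 7.70% in Block9del, 8.31% and 8.30% in Block13del, 6.998% and 14.97% in ARID1A_Y42S, and 8.57% and 8.23% in A457_G461del, which was then not the lowest. Each share of the WT-absent sites here rests on at most 75 sites. Trimming cut A457_G461del most, from 52711 and 50726 peaks, and left ARID1A_Y42S Rep2 whole. On the whole lists the shares of ARID1A_Y42S, 9.42% and 1.55%, spanned those of the other constructs of this code. The gaps at equal length therefore cannot be told apart from the trimming.

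The median WT-absent site had a peak in 3 of the 20 libraries of altered constructs, against 19 for the comparison regions. None of the 20 called 763 sites (15.8%, against 10.1% of all merged regions), 1 to 4 called 2952 sites (61.1%, against 30.5%), and 10 or more called 148 (3.06%, against 38.4% of all merged regions and 86.5% of the comparison regions). Matched on −log10 p-value, 71.4% of the comparison regions were called by 10 or more. None of the 24 libraries outside the rule had a peak at 746 sites (15.4%, against 8.56% of all merged regions). The 18 libraries with codes 3 to 6 had none at 2659 sites (55.0%), against 17.9% of all merged regions. For the comparison regions this share was 1.14% (2.22% if matched on −log10 p-value). On the whole lists the peaks at WT-absent sites outside the rule were thus mostly in libraries that share the date codes of the libraries that chose them. With every list at 19433 peaks, CBR called 3.48% and 2.36%, delIDR1 1.12% and 1.10%, and DBDmut 0.621% and 0.310%. Outside these codes ARID1A_Y42S then called 1.14% and 1.55%, ARID1A.DDX4 0.952% and 1.22%, and ARID1A_AQGscramC1C2 1.01% and 0.952%. Empty.Vector Rep3-4 called 1.30% and 0.952%, and the ARID1B libraries 0.0207% to 0.931%. The parts of list length and date code were not tested.

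Where a WT-absent site was called, its peak was of modest height within its list. The median fold enrichment was 3.96 and 4.21 in the CBR libraries, against 4.47 and 4.36 over all peaks of those lists. It was 4.24 and 4.58 in delIDR1 and 3.97 and 4.19 in DBDmut. In ARID1B.WT it was 4.29 and 4.59, against list medians of 5.28 and 5.51. The median −log10 p-value of the called sites stood at percentile 39.5 of the list in CBR Rep2 and at percentile 9.91 in ARID1A_Y42S Rep2, the highest and the lowest among the libraries outside the rule.

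In CBR, delIDR1, DBDmut, ARID1A_AQGscramC1C2, ARID1A_Y42S and Empty.Vector Rep3-4 the share called was higher for sites with more significant peaks in Empty.Vector Rep1-2. The sites were divided into quartiles by the lower of their −log10 p-values in Empty.Vector Rep1-2, at 6.97, 9.57 and 13.3. At equal list length CBR called 14.3% ± 7.67 of the weakest quartile, 27.5% ± 1.76 of the next, 49.4% ± 13.3 of the following and 65.1% ± 12.9 of the strongest (SD, n = 2). From the weakest to the strongest quartile, delIDR1 called 6.13%, 12.6%, 25.2% and 42.3%, and DBDmut called 1.95%, 5.84%, 16.4% and 26.5%. Within each quartile the mean was highest in CBR and lowest in DBDmut of these 3. On the whole lists, from the weakest to the strongest quartile, CBR called 42.8%, 48.9%, 59.9% and 71.03%, delIDR1 17.2%, 24.2%, 32.6% and 46.4%, and DBDmut 15.8%, 18.9%, 24.4% and 29.4%. In Empty.Vector Rep3-4 the shares were 1.82% ± 0.937, 2.28% ± 1.70, 3.68% ± 0.0585 and 9.11% ± 1.05 (SD, n = 2). ARID1B.WT called no site of the 3 weaker quartiles at this length and 0.497% ± 0.234 of the strongest (SD, n = 2). On the whole lists the ARID1B constructs did not all show this order, with 4.97%, 4.02%, 4.97% and 6.04% in ARID1B.WT and 6.04%, 4.43%, 5.75% and 5.63% in ARID1B.S320_G327del, where the weakest quartile had the highest share. ARID1A_AQGscramC1C2 rose from 8.28% in the weakest to 23.2% in the strongest quartile, and ARID1A_Y42S from 3.48% to 7.57%. The same ends were 1.45% and 4.43% in ARID1A.DDX4, 5.84% and 11.0% in Block9del, 4.72% and 7.37% in A457_G461del, and 4.06% and 5.46% in Block13del. Each of these last constructs was lowest in the second quartile. The trimmed lists were ranked by −log10 p-value themselves.

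**Figure D3:**
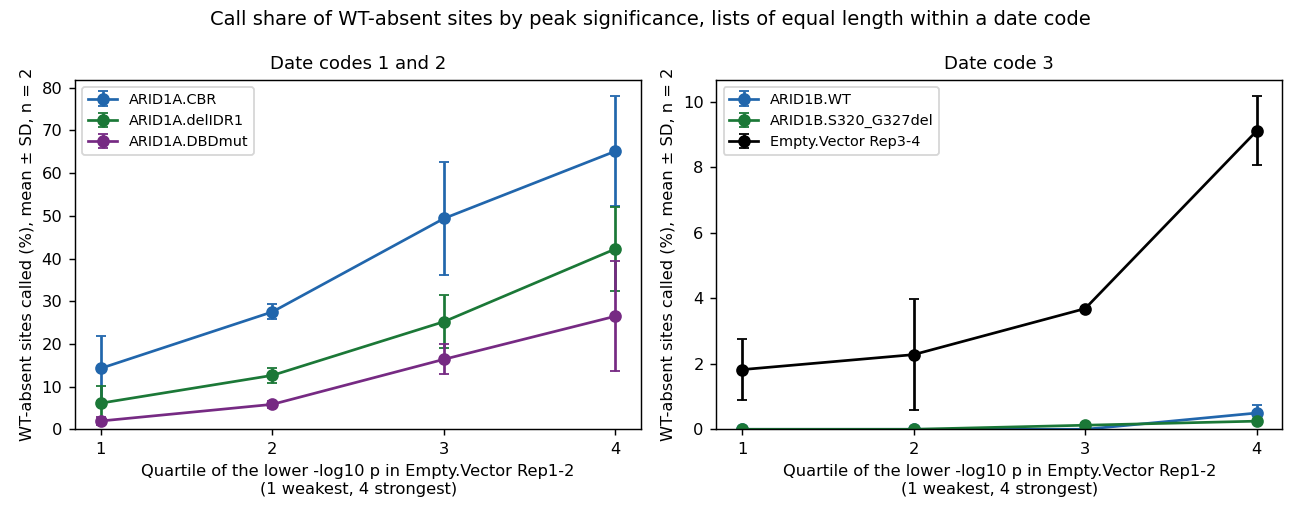
Percent of WT-absent sites called (y axis, mean ± SD of 2 libraries) by quartile of the lower −log10 p-value in Empty.Vector Rep1-2 (x axis), on lists of equal length within a date code. In the strongest quartile CBR reaches 65.1% and DBDmut 26.5% (left), and Empty.Vector Rep3-4 reach 9.11% while ARID1B.WT stays at 0.497% (right, on its own scale).

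The 12 sites with the highest fold enrichment in both rule libraries of Empty.Vector were 183 to 612 bp wide. All 12 had a peak in at least 1 CBR library and 6 in both, 7 had one in a delIDR1 library and 5 in a DBDmut library. ARID1B.WT called 1 of them and Empty.Vector Rep3-4 called none. The site at chr15:27304860-27305065 (206 bp) had a fold enrichment of 7.73 and 9.24 in CBR, 8.28 in DBDmut Rep1, 7.21 in delIDR1 Rep1, 10.1 in ARID1B.WT Rep1, and 11.0 and 9.23 in Empty.Vector Rep1 and Rep2. No other library called it. At chr11:22942586-22942805 (220 bp) CBR Rep2 had 9.94 and Empty.Vector Rep1 and Rep2 had 10.3 and 9.01, and these were its only peaks.

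The isolated site at chr4:181370646-181370972 was 214927 bp from the nearest ARID1A.WT peak. Its fold enrichment was 7.07 and 10.3 in CBR, 6.06 and 7.36 in delIDR1, and 9.40 and 8.66 in Empty.Vector Rep1 and Rep2. Both libraries of each of these 3 groups called it and none of the other 22 did. At chr9:118762951-118763316, 2365 bp from an ARID1A.WT peak, 10 altered libraries had a peak. They were both of DBDmut (5.29 in each), delIDR1 Rep2 (7.22), both of CBR (6.77 and 8.27), AQGscramC1C2 Rep2 (10.2), both of A457_G461del (7.03 and 5.70) and both of Block9del (7.71 and 7.78). Empty.Vector Rep1 and Rep2 had 9.30 and 8.22 there, and Rep3-4 had no peak.

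The 10 strongest of the 81 sites called in all 4 Empty.Vector libraries and in no wild-type library were spread over 9 chromosomes. CBR called 9 of them in at least 1 library, delIDR1 8 and DBDmut 8, while ARID1B.S320_G327del called none. The site at chr14:68120052-68120979 (928 bp) had a fold enrichment of 5.55 and 6.87 in CBR, 7.05 and 8.19 in delIDR1 and 5.56 and 6.32 in DBDmut. It had 5.80 in ARID1A_Y42S Rep1 and 4.83 and 7.51 in AQGscramC1C2. Empty.Vector Rep1 to Rep4 had 6.95, 6.61, 5.52 and 6.09. No altered ARID1B construct had a peak there. Its peaks in all 4 empty vector libraries and its lack of one in both wild types were set by the rules that named it.

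At chr7:105292688-105293273 (586 bp) the peak was present in both libraries of delIDR1 (5.85 and 4.33), CBR (4.51 and 4.11), DDX4 (5.07 and 4.62), ARID1A_Y42S (5.50 and 5.63) and AQGscramC1C2 (4.82 and 5.99). DBDmut Rep1 had 3.73 and Block9del Rep1 had 5.40. The empty vector libraries had 5.78, 4.56, 7.73 and 6.52, from Rep1 to Rep4. Here 5 altered forms of ARID1A had the peak in both libraries. The lack of a peak in wild-type ARID1A and ARID1B was set by the rules that named the site. The site at chr11:117097169-117097716 (548 bp) was called by 13 altered libraries, at 4.95 and 4.98 in CBR, against 7.71, 5.86, 6.65 and 6.93 in Empty.Vector Rep1 to Rep4.

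**Figure D4:**
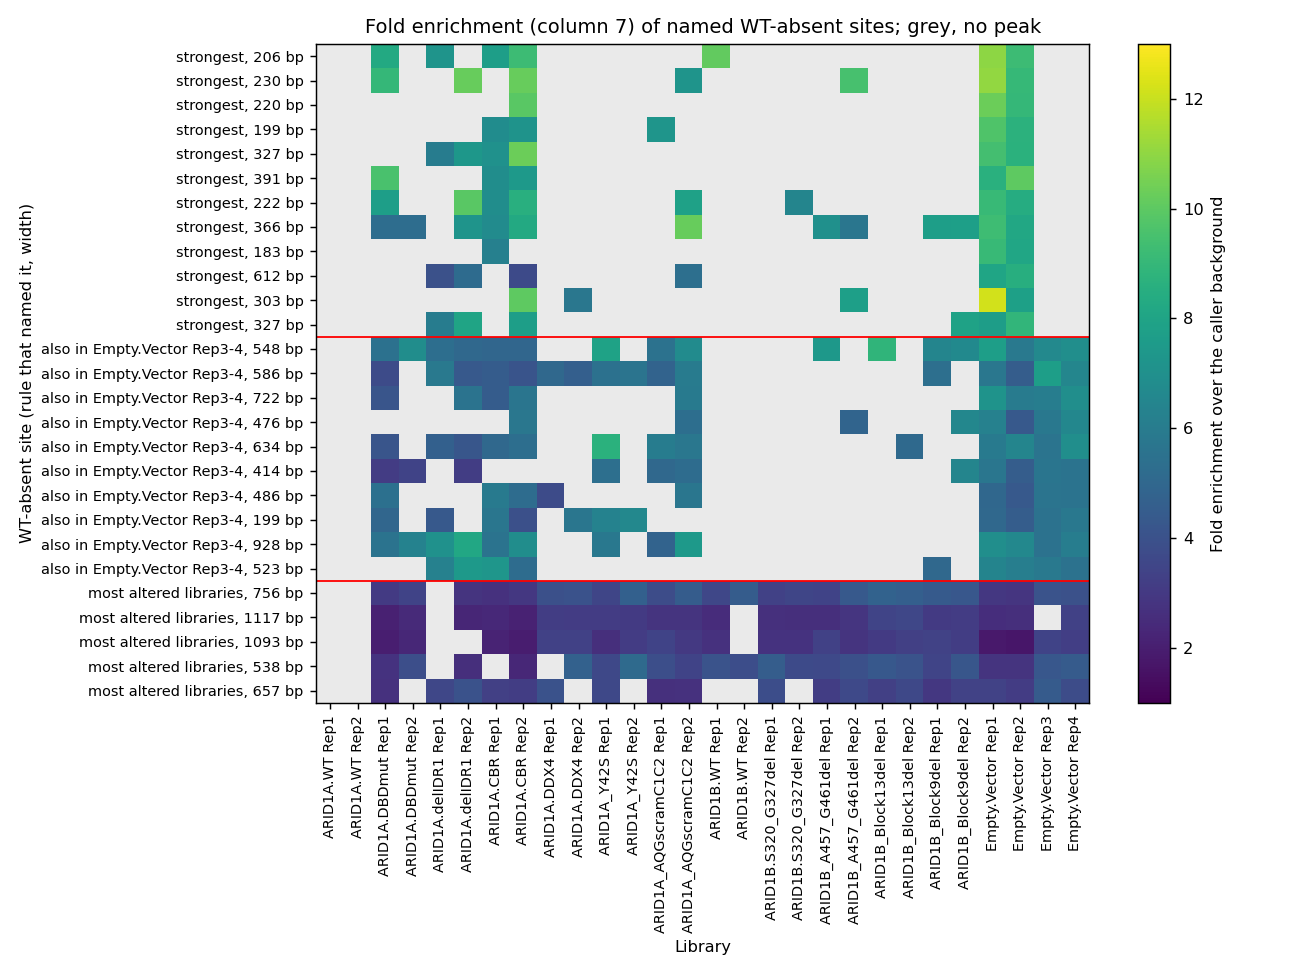
Fold enrichment over the caller's background (colour) of 27 named WT-absent sites (rows, by width and the rule that named them) in the 28 libraries (columns), with grey where no peak was called. The 12 strongest sites have peaks mainly in CBR, delIDR1 and DBDmut. The 10 sites also called in Empty.Vector Rep3-4 lack peaks in both wild types by the rules that named them. The 5 sites called by most altered libraries have low values throughout.

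A few sites carried peaks almost everywhere except in ARID1A.WT. The site at chr4:30761942-30762697 (756 bp) was called in 19 of 20 altered libraries, in both ARID1B.WT libraries (3.54 and 4.48) and in all Empty.Vector libraries (2.94, 2.85, 4.05 and 3.96). Its fold enrichment lay between 2.72 and 4.75 in the altered libraries, the highest being Block13del Rep1. Among these 5 sites chr5:92025415-92026071 (657 bp) lacked a peak in ARID1B.WT as well as in ARID1A.WT, with 3.38, 3.15, 4.43 and 3.80 in Empty.Vector Rep1 to Rep4. Only 13 WT-absent sites (0.269%) were called by 15 or more altered libraries, against 27.2% of all merged regions. For the comparison regions this share was 69.0% (36.8% if matched on −log10 p-value).

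At the other end, 5 of the 746 sites with no peak outside the rule were named by their fold enrichment. The first was chr4:42570725-42570944 (220 bp), with 7.84 and 7.59 in Empty.Vector Rep1 and Rep2, and 1160 bp from an ARID1A.WT peak. The site at chr9:11933905-11934467 (563 bp), with 6.82 and 6.60, was 394670 bp from the nearest ARID1A.WT peak. The widest WT-absent site, chr15:31137986-31140464 (2479 bp), also had no peak in any of the 24 libraries outside the rule, with 4.12 and 3.91 in Empty.Vector Rep1 and Rep2. The next widest, chrX:153629376-153631537 (2162 bp), was called by DBDmut Rep1 (1.90) and CBR Rep1 (2.15) besides Empty.Vector Rep1 and Rep2 (1.95 and 1.79).

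The WT-absent sites lay on every chromosome used. They made up 15.0% of the regions called in both Empty.Vector Rep1-2 on chromosome 4, 14.4% on chromosome 5 and 14.1% on chromosome 18, against 11.6% over all chromosomes. On chromosome 19 they were 132 of 2126 regions (6.21%), and on chromosome 17 they were 7.93%. Among regions whose −log10 p-value lay within the 10th to 90th percentile of the WT-absent sites, the share was 23.96% over all chromosomes. It was then 25.4% on chromosome 4, 27.8% on chromosome 5, 23.2% on chromosome 18, 20.3% on chromosome 17 and 17.1% on chromosome 19. The X chromosome had the highest share there, at 28.5%. At like significance the range between them was narrower in proportion, with chromosome 19 still the lowest.

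**Figure D5:**
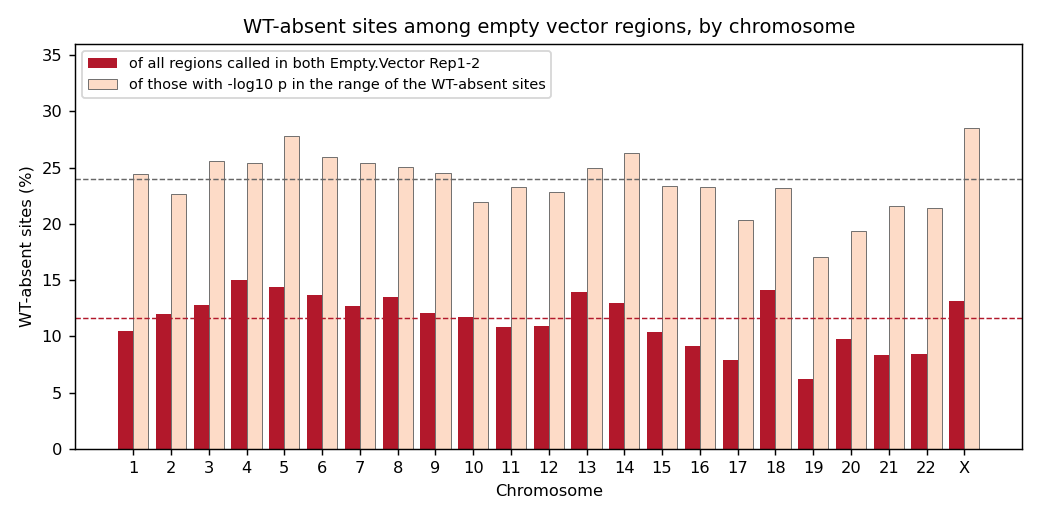
WT-absent sites as a percent of the regions called in both Empty.Vector Rep1-2 (dark bars) and of those with a −log10 p-value in the range of the WT-absent sites (light bars), by chromosome, with dashed lines at the values over all chromosomes, 11.6% and 23.96%. Chromosome 19 is lowest in both, at 6.21% and 17.1%.

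The sites were spread over many windows of 1 Mb. A WT-absent site was found in 2009 of the 2724 windows that held a region called in both empty vector libraries, with a median of 2 sites per such window and 5 or more in 219. The window with most was chr11:104000001-105000000, where 17 of 67 empty vector regions (25.4%) were WT-absent and 4 regions had the opposite pattern, a peak in both ARID1A.WT libraries and in neither of Empty.Vector Rep1-2. At chr10:54000001-55000000 the sites were 14 of 23 regions (60.9%), and no region had the opposite pattern. Over all merged regions the opposite pattern was the more frequent, at 24200 regions (26.6%).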

How the data were processed

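The authors deposited a separate peak list for each of the 28 ATAC-seq libraries, which means that replicates were not pooled. The submitters' processing notes list bcl2fastq, Bowtie2 (given as version 2.29), Picard 2.8.0, SAMtools 0.1.19 and MACS2, on hg19. For the caller, its options, any control and any shift of reads to the cut site were not given in the sources used here. Each deposited peak has the authors' fold enrichment (a ratio over the caller's background), its p-value and q-value as −log10, and a score. The score was not used. Without read counts the sequencing depth is unknown.

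Peaks on chromosomes 1 to 22 and X were kept, and overlapping peaks were merged. A region counted as called in a library where any of that library's peaks shared 1 bp or more with it, and the highest fold enrichment was taken. Python 3.11.15, numpy 2.4.6, pandas 2.3.3, scipy 1.17.1 and matplotlib 3.10.9 were used, and the merging was tested on simulated intervals. At most 0.301% of intervals were identical between 2 lists. Wilson intervals (95%) hold counting error alone, and they treat regions as independent although neighbours are not. Trimmed lists were ranked by −log10 p-value.

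Regions were named by rules: the 12 with the highest lower fold enrichment in Empty.Vector Rep1-2, the 10 strongest called in Empty.Vector Rep3-4 and not in ARID1B.WT, the 5 called by the most and by the fewest altered libraries, and the 3 widest. The sites, the rules and the comparisons were chosen with earlier results of these data known. The trimming within a date code was chosen after seeing the data. Genes, base composition and motifs at the sites were not analysed here, as no annotation or genome of build hg19 was used. The alternatives were trimmed lists, a stricter q-value, other overlap rules, other comparison regions and leaving out each library.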

Additional observations from a re-analysis of the deposited data

How the results depend on the processing

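The number of WT-absent sites depended on the length of the lists. It was 4542 at a −log10 q-value of at least 5, 5624 where peaks had to cover 50% of a region, 4790 where ARID1A.WT peaks within 500 bp counted, 2820 where those within 5000 bp counted, and 9528 with the 4 lists trimmed to 45227 peaks. Leaving out each library of the rule in turn gave 5494 to 9709.

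The call share in Empty.Vector Rep3-4, 6.73% as reported, was 17.0% for the sites of the 4 trimmed lists and 1.13% with every scored list at 19433 peaks, and 4.05% to 12.5% without 1 library each. In ARID1B.WT it was 5.00%, then 0.124% at equal length within a date code and 0.0517% at 19433 peaks, and 3.52% to 13.5% without 1 library. ARID1B.WT minus Empty.Vector Rep3-4 was −1.73 percentage points, −11.4 for the sites of the 4 trimmed lists, and changed sign to 1.28 where ARID1A.WT peaks within 5000 bp counted, 1.04 without ARID1A.WT Rep1 and 0.486 without Empty.Vector Rep4 (range without 1 library −3.94 to 1.04). At equal length it was −4.10, and −9.91 for the sites of the 4 trimmed lists, −1.77 with the 5000 bp rule and −7.58 to −2.32 without 1 library, below 0 in each alternative run. All of these runs share the trimming that cut ARID1B.WT more than Empty.Vector Rep3-4. The 81 sites with the pattern of the rule in code 3 became 570 with the 4 trimmed lists, 10 with the 5000 bp rule, 20 at 19433 peaks and 84 to 346 without 1 library. The median call share over the altered constructs, 6.49%, was 18.3% with the 4 trimmed lists, 1.45% at equal length, 0.921% at 19433 peaks and 4.45% to 14.8% without 1 library. CBR minus DBDmut was 33.5 percentage points, 2.45 at 19433 peaks and 8.22 to 58.8 without 1 library, and at equal length 26.4, with 19.4 to 32.6 without 1 library. The causes were not tested, beyond the fewer peaks that each trimmed list holds by construction. Rep1 and Rep2 of the constructs of codes 1 and 2 are paired by date code. With that pairing (replicate block) the mean difference of CBR minus DBDmut stayed 33.5 percentage points on the whole lists, with 8.22 within code 1 and 58.8 within code 2. At equal length it stayed 26.4, with 20.2 within code 1 and 32.6 within code 2. ARID1B.WT and Empty.Vector Rep3-4 share no replicate number and were not paired.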
